A study of Mus musculus with 6 samples.

Results

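Chemokines and their receptors were examined in wire-injured carotid arteries of mice, as 53 genes measured by 85 Affymetrix probe sets, out of 18194 genes and 45101 probe sets on the array. The members were all genes whose symbol marks a chemokine of the CC, CXC, C or CX3C type, or a conventional or atypical chemokine receptor. They comprised 33 ligands and 20 receptors, of which 4 were atypical. Each gene was read on its brightest probe set, judged by the mean of the 6 arrays, and 20 members had more than 1 probe set. The rule used symbols and not measured values, but the members were chosen with earlier results of these arrays known. Of 61 chemokine and receptor genes listed by role, 8 had no probe set naming them alone, among them the lymphoid ligand genes Ccl19 and Ccl21a.

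The study compared 3 arrays of wild-type (WT) mice with 3 arrays of mice carrying a global knockout of IRF4 (IRF4 KO), an interferon regulatory factor of lymphocytes and myeloid cells. All mice had the same wire injury, which strips the endothelium of the artery, and all vessels were taken on day 14. Each array held pooled RNA of 3 to 5 vessels, which averages over animals. The labels name the samples of a genotype biological replicates. The labels give no strain, sex, age or targeted part of Irf4 and no uninjured group, so all values describe injured vessels. Values are log2 intensities, where a difference of 1 is 2-fold, and they are compared between arrays on the same probe set, not between probe sets. The median over all gene means, 4.89, serves only to mark dim signal. The smooth muscle markers lay above that median in 8 of 8 cases, as did 8 of 8 endothelial and 7 of 7 fibroblast markers. Cartilage markers did so in 5 of 7 cases, and their mean level was highest in WT 3 and IRF4 KO 1. The smooth muscle signal goes with the tissue label, which these counts do not settle. The brighter probe set of Irf4 itself averaged 3.64 ± 0.26 for WT and 3.57 ± 0.26 for IRF4 KO (SD, n = 3), both dim, which leaves the genotype labels unchecked.

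Chemokines are small secreted proteins that bind to glycosaminoglycans on cells and matrix and guide leukocytes along their gradients. Their receptors pass the signal to G proteins of the Gi class, while atypical receptors take up ligands without doing so and shape the gradient. In an injured artery, CCL2 and its receptor CCR2 are known for drawing in monocytes, CCL5 for T cells and monocytes, CX3CL1 for monocytes that patrol the vessel, and CXCL12 with CXCR4 for bone marrow-derived and smooth muscle progenitor cells.

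Because the study removed an interferon regulatory factor, the promoters of the members were read for the 2 elements that such factors bind. RefSeq promoter windows (build GRCm38.p6, 250 bases before to 50 after the gene's start) were matched for 40 of the 53 members. No entry was matched for Ccl2, Ccl4, Ccl5, Ccl7, Ccl11, Ccl24, Ccr7, Ccr10, Cxcl5, Cxcl11, Cxcl16, Cxcl17 and Cxcr5. The interferon-stimulated response element, searched on both strands as GAAA, any 2 bases and GAAA again, was present in 2 of the 44 windows of members (4.55%), those of Cxcl10 and Cxcl14. It was present in 3.44% of all 32851 windows. The composite element of ETS and IRF factors, searched as GGAA, any 2 bases and GAAA, was present in 1 member window (2.27%), that of Ccl8, and in 2.72% of all windows. These 3 windows are shown 5′ to 3′ on the strand of the gene, with the match in capitals, since they are the member promoters that hold the letters of an IRF site. Those of Cxcl10 (chr5:92348840-92349139, minus strand) and Cxcl14 (chr13:56296502-56296801, minus strand) hold the response element and that of Ccl8 (chr11:82114935-82115234, plus strand) holds the composite element, the last on the opposite strand.
Cxcl10: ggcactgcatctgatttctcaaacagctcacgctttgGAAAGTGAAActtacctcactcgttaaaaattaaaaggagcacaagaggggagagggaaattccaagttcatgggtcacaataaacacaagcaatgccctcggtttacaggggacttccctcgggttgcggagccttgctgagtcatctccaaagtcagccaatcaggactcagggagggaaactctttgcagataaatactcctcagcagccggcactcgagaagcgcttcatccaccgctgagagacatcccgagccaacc
Cxcl14: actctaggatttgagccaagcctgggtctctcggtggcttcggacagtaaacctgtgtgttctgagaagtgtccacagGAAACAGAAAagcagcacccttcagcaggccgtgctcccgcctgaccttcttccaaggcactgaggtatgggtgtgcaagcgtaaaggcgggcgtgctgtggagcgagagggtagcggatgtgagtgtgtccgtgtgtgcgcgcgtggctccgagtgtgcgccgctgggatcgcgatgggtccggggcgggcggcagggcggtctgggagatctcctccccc
Ccl8: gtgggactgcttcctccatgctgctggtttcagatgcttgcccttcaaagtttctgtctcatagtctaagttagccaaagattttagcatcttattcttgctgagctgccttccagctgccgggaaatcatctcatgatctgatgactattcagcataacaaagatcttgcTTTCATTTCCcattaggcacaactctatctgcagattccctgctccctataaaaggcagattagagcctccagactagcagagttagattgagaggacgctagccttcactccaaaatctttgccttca
A match is a description of these letters and not a bound site. The matches begin 213 bases before the start in Cxcl10, 172 in Cxcl14 and 79 in Ccl8. None of these 3 genes passed the test between genotypes at an adjusted p under 0.05, which 0% of all 18194 genes passed. Cxcl10 differed by -0.21 (SE 0.36), Cxcl14 by 0.058 (SE 0.23) and Ccl8 by 0.24 (SE 0.23). For NF-kB, a factor that drives many inflammatory chemokines, the letters GGG, any 2 bases and TTTCC were present in 13.6% of member windows and 1.63% of all windows, the members being Ccl9, Ccl20, Ccr3, Cxcl1, Cxcl2 and Cxcl3. With the looser GGG, any 5 bases and CC, which includes the former, the shares were 56.8% and 50.8%, with GGANNTTCC 15.9% and 4.26%, and with the AP-1 letters TGANTCA 15.9% and 7.81%.

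The comparison of IRF4 KO with WT asks which chemokine genes differ in the injured wall without IRF4. In the limma fit over all genes, 0 of the 53 members passed a Benjamini-Hochberg adjusted p under 0.05, and the share called over all 18194 genes was also 0%. At an unadjusted p under 0.05 there were 5 members, all higher in IRF4 KO, against a background of 1.49% of all genes in either direction: Ccl2, Ccl5, Ccl3, Ackr4 and Ccr10. Of the 53 members, 46 had a higher mean in IRF4 KO and 7 a lower one, with a median difference of 0.21. Over all genes the median was -0.0015 and 49.7% were higher, and among the 9097 genes at or below the median level 60.5% were higher. The members belong largely to that dim part of the array, since 44 of 53 lay there. The number higher was 31 of 53 with array weights, 36 without IRF4 KO 3 and 38 without WT 2, so this count moved with single arrays. The median moved with them, to 0.085 with array weights, 0.083 without IRF4 KO 3 and 0.11 without WT 2.

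**Figure D1:**
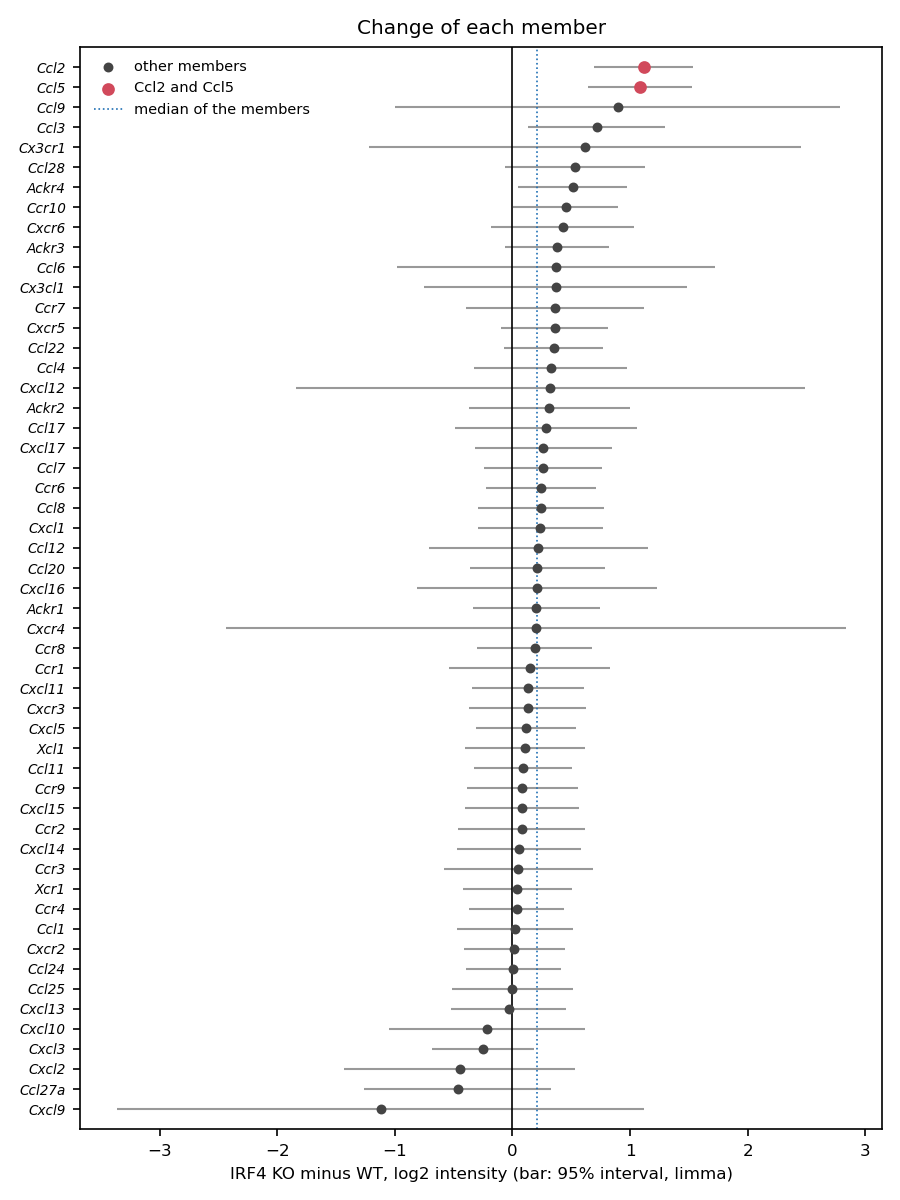
Difference between the genotype means of each of the 53 members on the log2 scale (x axis), with the 95% interval of limma as a bar and genes ordered by size (y axis). Ccl2 and Ccl5, at 1.11 and 1.08, stand apart with short bars, while Cxcl9 at -1.12 and Ccl9 at 0.90 have wide ones.

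Ccl2, the main chemokine for monocytes, read 3.21, 2.85 and 3.11 in the WT arrays 1 to 3 and 4.21, 4.09 and 4.21 in the IRF4 KO arrays 1 to 3. Every IRF4 KO array was above every WT array, and the 3 IRF4 KO values lay within a narrow band. The difference was 1.11 (SE 0.18, 95% interval 0.69 to 1.54). Its limma adjusted p over all genes was 0.282 and its unadjusted p 0.000278. The gene has a single probe set here, and its signal was dim in both genotypes, below the median of 4.89. Whether the WT signal was above background cannot be read from these values, so no fold is given.

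Ccl5, a chemokine of T cells, natural killer cells and macrophages, read 6.12, 5.86 and 5.68 in WT and 7.09, 6.91 and 6.91 in IRF4 KO. The genotypes again did not overlap, and this gene lay above the median of all genes on each array. The difference was 1.08 (SE 0.19, 95% interval 0.64 to 1.53), or 2.12-fold, with a limma adjusted p of 0.375 and an unadjusted p of 0.000453. It too was read by 1 probe set. For both genes, all 3 IRF4 KO values above all 3 WT values is a pattern that 7 of 53 members showed, against 2.37% of all genes.

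Ccl2 and Ccl5 stood apart from the other 51 members in combining a large difference with a small spread. Their SDs within a genotype, pooled over both, were 0.14 and 0.17, against a median of 0.29 over the other 51 members and 0.29 over all genes. A difference above 1 in size was otherwise found only in Cxcl9 among the members, and there the pooled SD was 1.69. Of 12 members with a pooled SD under 0.2, the 10 besides Ccl2 and Ccl5 differed by at most 0.45. Over all genes, 4454 had a pooled SD under 0.2. Of these, 3838 differed by less than 0.25, 574 by 0.25 to 0.5, 18 by 0.5 to 0.75, 3 by 0.75 to 1 and 21 by more than 1. Both chemokine genes are among those 21, and no member lay between 0.5 and 1. The other 19 were Acta2, Smtn and Tagln of contractile smooth muscle, Ccnd1, Cdkn1a and Pcna of the cell cycle, Arg1, Cd86, Chil3, Mrc1, Nos2, Retnla and Tnf of macrophage activation, and Klf4, Mmp2, Pparg, Rab4a, Tgfb1 and Vcam1. Of the 21, 12 were higher and 9 lower in IRF4 KO, with sizes of 1.03 to 1.31. Sizes above 1 and genotypes without overlap follow from the limits of size and spread by which these 21 were picked. Of these genes 9 had further probe sets, 12 in all, and 11 of those also differed by 1.02 to 1.13 in size, in the direction of the gene. Il6 (1.09, pooled SD 0.204) and Il1b (1.05, pooled SD 0.205) narrowly missed the limit of spread, so the count of 21 depends on that limit. The differences of Ccl2 and Ccl5 thus have the size and spread of a small group of known genes. Among the genes with a pooled SD under 0.2, that group lies apart in size, with only 3 others at 0.75 to 1. What sets that group apart was not tested, the scanner files were not analysed here, and the values of Ccl2 and Ccl5 rest on the deposited table alone. These limits of spread and size were set after the values were seen.

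**Figure D2:**
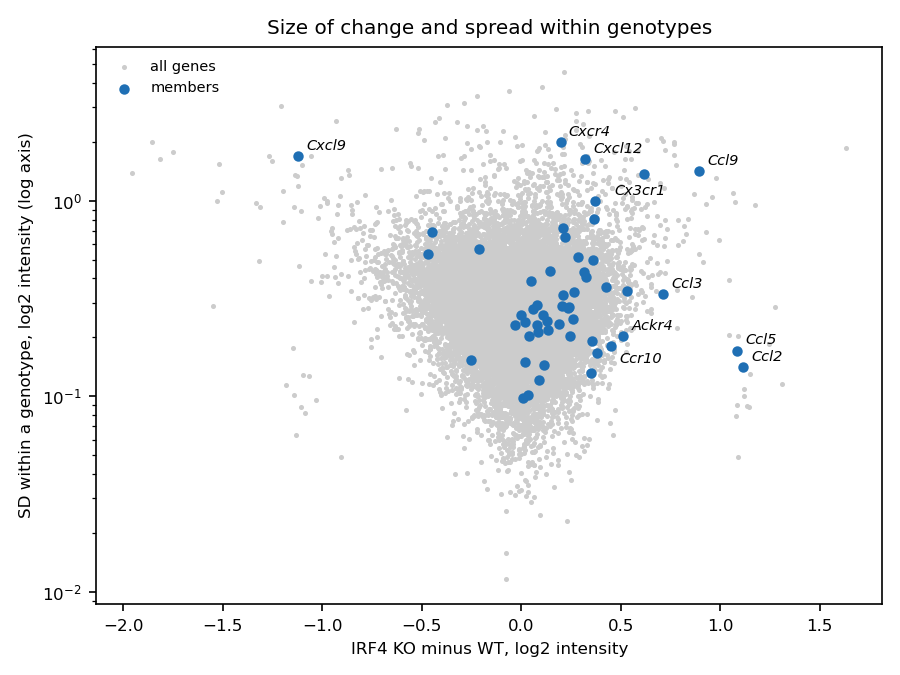
SD within a genotype, pooled over WT and IRF4 KO (y axis, log2 intensity on a log axis), against the difference between genotypes (x axis) for all 18194 genes in grey and the 53 members in blue. Ccl2 and Ccl5 lie to the right of the main cloud at SDs of 0.14 and 0.17, while Cxcr4, Cxcl12, Cx3cr1 and Ccl9 lie high, at SDs of 1.37 to 1.997.

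Both genes sit in clusters of related genes that allow a comparison with their neighbours. In the RefSeq gene order, Ccl2 is followed by Ccl7, Ccl11, Ccl12, Ccl8 and Ccl1, named here for their position. The next gene, Ccl7, a monocyte chemokine that also binds CCR2, read 3.47, 2.86 and 3.43 in WT and 3.61, 3.46 and 3.47 in IRF4 KO. Its difference was 0.26 (95% interval -0.24 to 0.76), and the genotypes overlapped. Ccl12, a further CCR2 ligand of the mouse, read 2.39, 2.45 and 2.88 in WT and 3.79, 2.13 and 2.47 in IRF4 KO, so that only IRF4 KO 1 was above the WT range. The eosinophil chemokine gene Ccl11 differed by 0.089 (SE 0.18) and Ccl1 by 0.019 (SE 0.22). The 3 CCR2 ligands thus gave differences of 1.11, 0.26 and 0.22, and the difference between them was not tested.

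Ccl5 is followed in the same order by Ccl9, Ccl6, Ccl3 and Ccl4. Ccl3, a chemokine of activated macrophages that binds CCR1, read 2.08, 2.29 and 2.56 in WT and 3.29, 2.56 and 3.23 in IRF4 KO. The genotypes met at IRF4 KO 2 and WT 3, and the difference was 0.72 (SE 0.25, limma adjusted p = 0.999, unadjusted p = 0.0216). Ccl4, a close relative of Ccl3, read 5.40, 5.13 and 4.94 in WT and 5.41, 4.99 and 6.04 in IRF4 KO. Only IRF4 KO 3 was clearly above the WT range, and the difference was 0.32 (SE 0.28). Ccl9 and Ccl6, which are made by myeloid cells and bind CCR1, differed by 0.90 (SE 0.82) and 0.37 (SE 0.59).

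All 11 inflammatory CC ligands had a higher mean in IRF4 KO, with a median difference of 0.32. Of the 11, 9 lay at or below the median level, where 60.5% of all genes were higher. Ccl24 differed by only 0.0070 (SE 0.18). With WT 3 and IRF4 KO 1 set aside, Ccl6 and Ccl12 were lower in IRF4 KO (-0.15 and -0.12), and the others were higher. Markers of cell types were read on the same arrays. The mean level of the 8 measured T and NK cell markers, relative to the mean of the 6 arrays, lay between -0.39 and 0.092 in WT and between -0.20 and 0.47 in IRF4 KO. Of these markers 7 were higher in IRF4 KO, with a median difference of 0.26, and 2 of 8 lay above the median of all genes. The 11 macrophage and monocyte markers lay between -0.93 and 1.26 in WT and between -1.17 and 2.26 in IRF4 KO, with 6 higher. By array they were at 2.26 in IRF4 KO 1 and at -1.17 and -1.06 in IRF4 KO 2 and IRF4 KO 3. The 8 smooth muscle markers were split. Acta2, Tagln and Smtn were higher in IRF4 KO by 1.14, 1.08 and 1.09 without overlap (limma adjusted p = 0.252 for each), while the other 5 differed by -0.28 to 0.19. Pparg, on the adipocyte list, differed by -1.09. Endothelial markers were higher in 7 of 8 cases, with a median difference of 0.36. The part of these cells in the values of Ccl2 and Ccl5 was not tested, and in such bulk samples more cells of a type and more RNA per cell cannot be told apart.

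**Figure D3:**
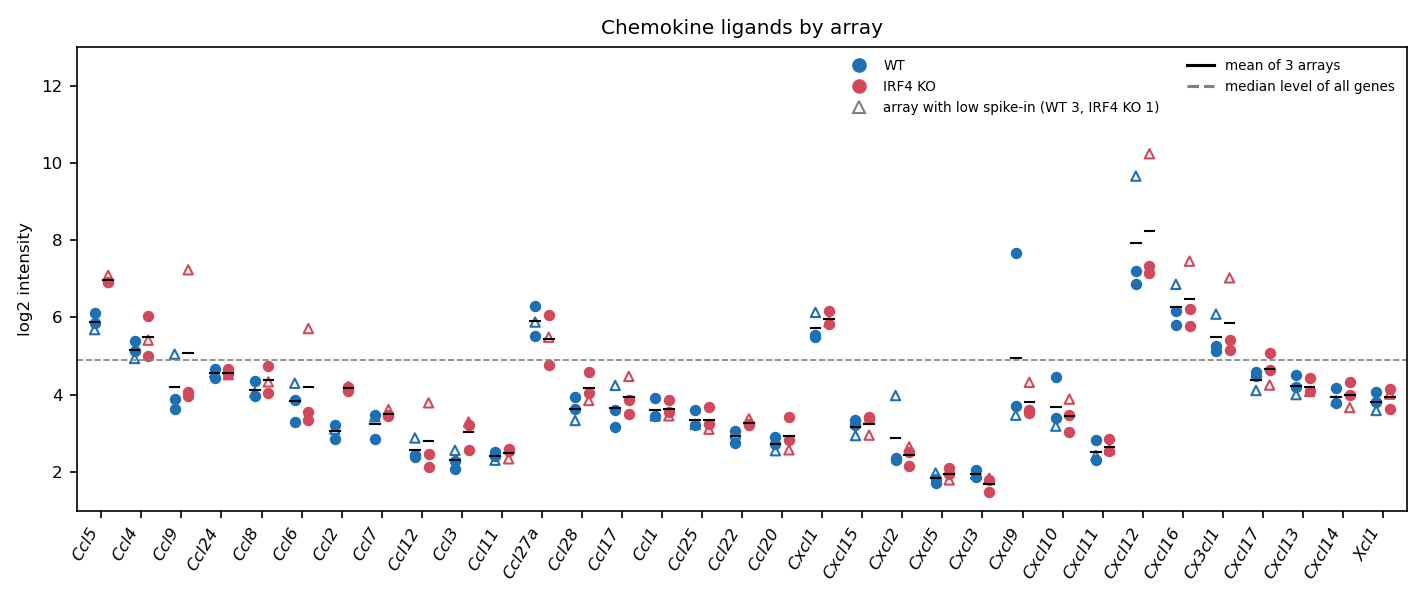
Log2 intensity (y axis) of the 33 ligands (x axis, by role) on each array, with WT in blue, IRF4 KO in red, the genotype mean as a bar and open triangles for WT 3 and IRF4 KO 1. For Ccl2 and Ccl5 the red points sit above the blue ones, while in Cxcl12, Cxcl16 and Cx3cl1 the triangles of both genotypes sit above the circles.

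Among ligands of lymphocyte traffic and epithelial surfaces, 5 of 7 were higher in IRF4 KO and 2 lower. Ccl28, a mucosal chemokine that binds CCR10 and CCR3, read 3.93, 3.63 and 3.33 in WT and 3.85, 4.05 and 4.59 in IRF4 KO. IRF4 KO 1 lay inside the WT range, and the difference was 0.53 (SE 0.26). Its other probe sets gave 0.25 and 0.10. Ccl22, a ligand of CCR4 from dendritic cells and macrophages, read 2.75, 3.06 and 2.98 in WT and 3.38, 3.22 and 3.24 in IRF4 KO. Those values did not overlap, though the difference of 0.35 (SE 0.18, limma adjusted p = 0.999) did not pass. Ccl17, the other CCR4 ligand, differed by 0.28 (SE 0.34) with overlapping values. Ccl27a, a skin-homing chemokine, read 5.53, 6.30 and 5.88 in WT and 5.49, 6.06 and 4.76 in IRF4 KO, a difference of -0.47 (SE 0.35) that rested largely on IRF4 KO 3; without that array it was -0.13. Ccl1, Ccl20 and Ccl25 differed by 0.019, 0.21 and -0.00012.

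None of the 5 neutrophil-attracting ligands of CXCR2 passed the test, as was true of all genes, with 3 higher and 2 lower. Cxcl1, the main one of the mouse, read 5.54, 5.50 and 6.13 in WT and 5.88, 5.83 and 6.17 in IRF4 KO, a difference of 0.24 (SE 0.23). Its other probe sets gave 0.72 and 0.082. On the first of these it read 3.58, 4.03 and 5.02 in WT and 6.11, 4.60 and 4.09 in IRF4 KO, with WT 3 and IRF4 KO 1 highest. Cxcl2 was high in WT 3 alone, at 3.98 against 2.32 and 2.36 in the other WT arrays and 2.15 to 2.65 in IRF4 KO. Without WT 3 its difference of -0.45 became 0.10. Cxcl3 read 2.04, 1.86 and 1.94 in WT and 1.84, 1.79 and 1.47 in IRF4 KO. It was the 1 member with all IRF4 KO values below all WT values, a pattern of 3.31% of all genes, at a difference of -0.25 (SE 0.19) in very dim signal. Cxcl5 and Cxcl15 differed by 0.12 and 0.082. The marker genes of neutrophils were also dim, with 0 of 8 above the median level.

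Of the interferon-induced ligands of CXCR3, Cxcl9 and Cxcl10 were highest in 1 WT array. Cxcl9, induced by interferon gamma and a recruiter of T cells, read 7.66 in WT 1 against 3.70 and 3.47 in WT 2 and WT 3, and 4.32, 3.53 and 3.62 in IRF4 KO. The second probe set was also highest in WT 1, at 4.16, with 2.79 to 3.21 on the other arrays. Cxcl10 was likewise highest in WT 1, at 4.44, against 3.38 and 3.18 in WT and 3.88, 3.47 and 3.02 in IRF4 KO. The difference of Cxcl9 was -1.12 (SE 0.98) over all arrays and 0.24 without WT 1, and that of Cxcl10 was -0.21 and 0.17. Cxcl11 differed by 0.14 (SE 0.21). Cxcr3, the receptor of all 3, read 4.35, 3.96 and 4.44 in WT and 4.63, 4.17 and 4.34 in IRF4 KO, which overlapped at a difference of 0.13 (SE 0.22).

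WT 3 and IRF4 KO 1 differed from the other 4 arrays more than the genotypes did, and several chemokine genes moved with them. These arrays had low poly-A spike-in controls, control transcripts of bacterial origin mixed into the sample, with means of 4.93 and 5.14 against 7.35 to 9.26. The pair holds 1 array of each genotype, so the difference between array sets and that between genotypes can be read side by side. Of the 53 members, 7 were higher by more than 1 in the pair and 0 lower by more than 1: Cxcr4, Cxcl12, Cx3cr1, Ccl9, Ccl6, Cx3cl1 and Cxcl16. Over all genes 4.14% were higher by more than 1. The differences of these 7 members lay between 1.17 and 3.44.

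Cxcl12, the ligand that holds progenitor cells in their niche, read 7.21, 6.88 and 9.66 in WT and 10.24, 7.33 and 7.14 in IRF4 KO. Its receptor Cxcr4 read 2.71, 2.67 and 5.86 in WT and 6.42, 2.58 and 2.84 in IRF4 KO. Ligand and receptor were thus both high in WT 3 and IRF4 KO 1 and low elsewhere, by 2.81 and 3.44. Their differences between genotypes were 0.32 (SE 0.94) and 0.20 (SE 1.15), small beside that spread. A second Cxcl12 probe set gave 5.41, 5.51 and 7.11 in WT and 7.75, 5.89 and 4.78 in IRF4 KO, with the same arrays highest, while the third was dim and gave -0.33 between the array sets.

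The fractalkine pair behaved alike. Cx3cl1, a membrane-bound chemokine of endothelium and smooth muscle, read 5.25, 5.14 and 6.08 in WT and 7.02, 5.15 and 5.41 in IRF4 KO. Its receptor Cx3cr1, found on monocytes and tissue macrophages, read 2.74, 3.23 and 5.24 in WT and 5.98, 3.37 and 3.71 in IRF4 KO. Their other probe sets gave differences between the array sets of -0.25 to 0.039 for Cx3cl1 and -0.18 for Cx3cr1, so each of these patterns rested on 1 probe set. Cxcl16, a scavenger receptor and ligand of CXCR6, read 6.16, 5.80 and 6.85 in WT and 7.46, 5.78 and 6.21 in IRF4 KO. Its second probe set gave 4.88, 5.00 and 6.77 in WT and 7.35, 4.76 and 4.18 in IRF4 KO, a wider gap of 2.36 between the array sets.

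Ccl9 read 3.64, 3.88 and 5.05 in WT and 7.23, 3.96 and 4.07 in IRF4 KO, and Ccl6, named after its values were seen, 3.87, 3.30 and 4.29 in WT and 5.71, 3.34 and 3.54 in IRF4 KO. IRF4 KO 1 was highest in both genes, and without it the difference of Ccl9 went from 0.90 to -0.18. On its second probe set Ccl9 read 2.52, 2.79 and 2.59 in WT and 4.51, 2.83 and 2.87 in IRF4 KO, without overlap but again far highest in IRF4 KO 1. Markers of other cells lay high on the same arrays. The macrophage and monocyte list was at 1.26 in WT 3 and 2.26 in IRF4 KO 1 against -1.17 to -0.37 on the other 4, with 10 of 11 genes higher in the pair. Cartilage markers read 2.86 and 3.10 on the pair against -1.70 to -1.24, and fibroblast markers at 0.98 and 1.46 against -0.68 to -0.50. The part of these cells, or of RNA handling, in the chemokine values was not tested.

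Ccl2 and Ccl5 were not among the members that moved with those arrays. The pair of arrays differed from the other 4 by 0.072 in Ccl2 and -0.065 in Ccl5. Between IRF4 KO 1 and WT 3, Ccl2 differed by 1.10, and among the other 4 arrays by 1.12. For Ccl5 the values were 1.40 and 0.92. Of the 53 members, 34 were higher in IRF4 KO within both array sets and 3 lower within both, with median differences of 0.19 and 0.17. Over all 18194 genes, 4777 were higher within both and 4696 lower within both. Among the 9097 genes at or below the median level, where 44 members lay, these counts were 3034 and 1843. The first array set compares 1 array with 1 array. Fitting the array set as a block gave limma adjusted p values of 0.0904 for Ccl2 and 0.117 for Ccl5.

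**Figure D4:**
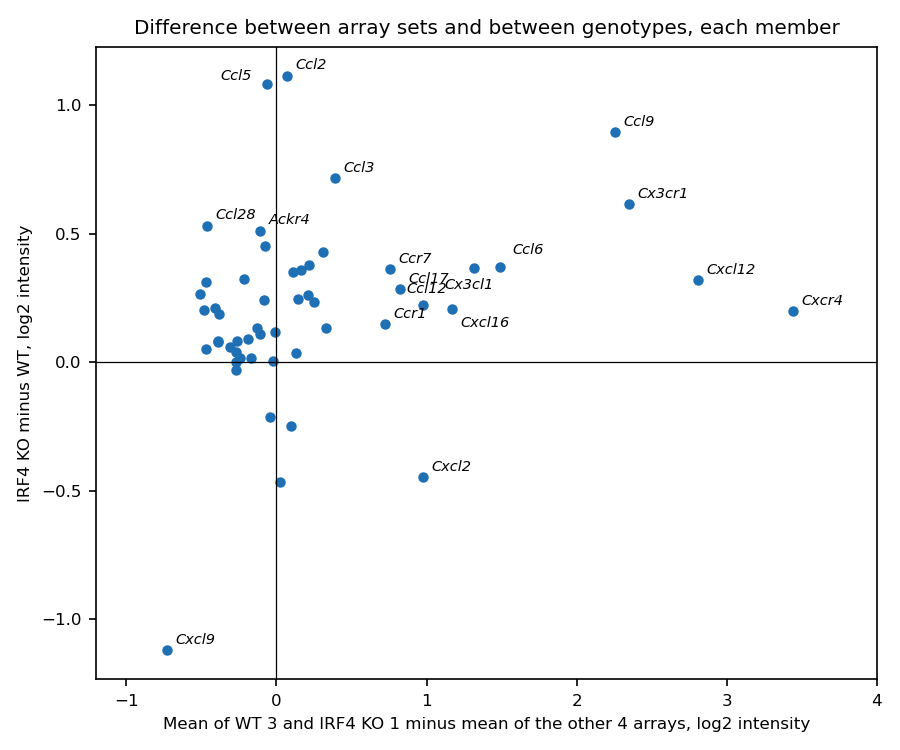
Difference between genotypes (y axis, log2 intensity) against the difference between WT 3 with IRF4 KO 1 and the other 4 arrays (x axis, log2 intensity) for each of the 53 members. Ccl2 and Ccl5 lie at the top near 0 on the x axis, and Cxcr4 and Cxcl12 lie at the right, at 3.44 and 2.81, with differences between genotypes of 0.20 and 0.32.

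All 9 CC receptor genes had a slightly higher mean in IRF4 KO, with a median difference of 0.15. Of the 9, 8 lay at or below the median level, where 60.5% of all genes were higher. None of the 9 passed over all genes, as was true of every gene. Ccr2, the receptor of CCL2 on monocytes, read 5.52, 5.28 and 4.85 in WT and 5.14, 5.17 and 5.56 in IRF4 KO, a difference of 0.077 (95% interval -0.46 to 0.62). On this probe set the interval lies below the 1.11 of the ligand gene Ccl2, and the difference between the genes was not tested. The other Ccr2 probe sets gave -0.048 (SE 0.55), 0.18 (SE 0.18) and 0.24 (SE 0.42) in the fit on all probe sets. The first and last of them were less precise than the probe set used, so the comparison with Ccl2 holds for that probe set alone. On the first of these Ccr2 read 3.86, 3.29 and 4.69 in WT and 5.12, 3.15 and 3.42 in IRF4 KO, where WT 3 and IRF4 KO 1 were highest, unlike on the probe set used. Ccr1 and Ccr3, which bind CCL5, differed by 0.15 (SE 0.30) and 0.051 (SE 0.28). Ccr10, a receptor of skin and mucosal homing, read 3.83, 3.64 and 3.66 in WT and 4.11, 3.96 and 4.42 in IRF4 KO. Those values did not overlap, at a difference of 0.45 (SE 0.20, limma adjusted p = 0.999). Ccr6, the receptor of CCL20 on lymphocytes and dendritic cells, differed by 0.24 (SE 0.20). The other 4 CC receptors, Ccr4, Ccr7, Ccr8 and Ccr9, differed by 0.036 to 0.36.

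Of the 7 receptors for CXC, C and CX3C ligands, Cxcr5 had no overlap between genotypes. This receptor of B cells and follicular helper T cells read 2.27, 2.38 and 2.73 in WT and 2.76, 2.96 and 2.74 in IRF4 KO, with WT 3 and IRF4 KO 3 almost equal. Its difference was 0.36 (SE 0.20), and its ligand gene Cxcl13 differed by -0.031 (SE 0.21). Cxcr6, the receptor of CXCL16, differed by 0.43 (SE 0.26), Cxcr2, the receptor of neutrophil chemokines, by 0.018 (SE 0.19) and Xcr1, a receptor of cross-presenting dendritic cells, by 0.042 (SE 0.20). Xcl1, the ligand of XCR1, differed by 0.11 (SE 0.22). The mean signal of all 7 was below 4.89.

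**Figure D5:**
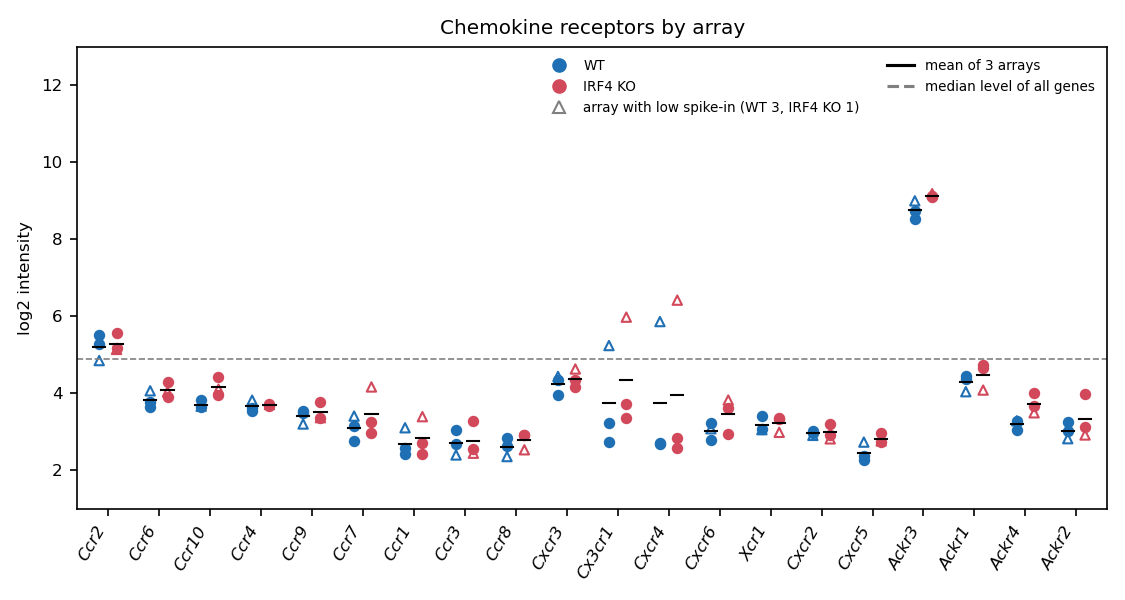
Log2 intensity (y axis) of the 20 receptors (x axis, by class) on each array, with WT in blue, IRF4 KO in red, the genotype mean as a bar and open triangles for WT 3 and IRF4 KO 1. Ackr3 lies between 8.54 and 9.19 on all arrays, and in Cxcr4 and Cx3cr1 the triangles of both genotypes lie far above the circles.

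The atypical receptors were higher in IRF4 KO in 4 of 4 cases, with a median difference of 0.35. Over all genes 49.7% were higher, and 60.5% of those at or below the median level. Ackr3, which removes CXCL12 and CXCL11 and is made by vascular cells, read 8.54, 8.74 and 9.002 in WT and 9.19, 9.12 and 9.11 in IRF4 KO. All IRF4 KO values were above the WT values, and the difference was 0.38 (SE 0.19, limma adjusted p = 0.999). Unlike its ligand gene Cxcl12, it differed by only 0.22 between the array sets. Ackr4, which clears CCL19, CCL21 and CCL25, read 3.06, 3.28 and 3.29 in WT and 3.49, 3.66 and 3.997 in IRF4 KO. That difference of 0.51 (SE 0.20, limma adjusted p = 0.999) had the opposite sign on its other probe sets, which gave -0.30 and -0.36. Ackr1, the Duffy antigen of venular endothelium and red cells, differed by 0.20 (SE 0.23), and Ackr2, which clears inflammatory CC chemokines, by 0.31 (SE 0.30). Over the 20 members with several probe sets, 14 had the same direction on all of them.

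Genes that act with chemokines were taken from 3 lists of signalling, ligand handling and regulation. Over all genes, 0% passed and 1.49% had an unadjusted p under 0.05, so a count of 0 in lists this short is near that share. Of 27 measured genes of receptor signalling, 0 passed over all genes and 0 had an unadjusted p under 0.05, with 12 higher and 15 lower and a median of -0.0021. The smallest p values were those of Gnb1, a G protein subunit (-0.33), Rgs18, a brake on G protein signalling (0.27), and Rac1, a GTPase of cell migration (0.36). Of 19 genes that bind, cut or resemble chemokines, 0 passed and 0 had an unadjusted p under 0.05, with 10 higher and 9 lower. The first of these were Ext1, an enzyme of heparan sulphate synthesis (0.41), Dpp4, a protease that trims chemokines (0.20), and the sheddase gene Adam10 (-0.23). Of 22 factors and cytokines that regulate chemokine genes, 0 passed over all genes and 3 had an unadjusted p under 0.05, all higher in IRF4 KO. These were the cytokine genes Tnf (1.31), Il6 (1.09) and Il1b (1.05), with limma adjusted p values of 0.252, 0.456 and 0.560. By the mean of the 6 arrays, Tnf and Il6 were dim, below the median of all genes. Tnf averaged 3.85 in WT and 5.17 in IRF4 KO, the latter above that median of 4.89. Il6 averaged 1.92 in WT and 3.01 in IRF4 KO. A link of these cytokines to Ccl2 and Ccl5 was not tested. The median over that list was 0.11, with 13 higher and 9 lower.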

How the data were processed

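Gene expression was measured on 6 arrays, 3 of WT and 3 of IRF4 KO arteries, each from 400 ng of pooled RNA. The deposited values are log2 intensities per probe set, which the authors made with Affymetrix Expression Console and RMA, per the submitters' processing notes. No versions are stated there. Since RMA compresses dim signals, folds of dim genes come out too small.

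Probe sets were named from the platform annotation of the data: 34958 of 45101 had 1 symbol, 932 several and 9211 none, and 4 probe sets with several symbols covered chemokines and were left out. A RefSeq table (GRCm38.p6) held 34754 of them by Entrez number and changed 0 symbols. Each gene took its brightest probe set. The genotypes were compared in limma 3.58.1 under R 4.3.3 (lmFit, eBayes, two-sided, no covariate), with Benjamini-Hochberg adjustment over 18194 genes and a threshold of 0.05. SE is the moderated standard error, intervals are 95%, and the number of arrays limits the precision. Tested on simulated arrays of 18194 genes for IRF4 KO against WT, the fit found 10% of genes that were shifted by 1 (log2) and 76% of genes shifted by 2, with 4 false calls, and called 0 genes when none was shifted.

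Named by rule were Ccl2, Ccl5, the 3 brightest members per role, the 6 with the smallest p, members without overlap, the 4 that differed most between WT 3 with IRF4 KO 1 and the rest, and 3 genes per further list. The members, lists and alternatives were chosen with earlier results of these data known. The labels number the replicates alike, but same-numbered arrays did not deviate together (correlations of -0.516, 0.372 and -0.620), so the number was not used as a block. The alternatives were that block, other probe set, filter, scaling, variance and weight settings, the spike-in level, each array left out and a fit on 34958 probe sets.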

Additional observations from a re-analysis of the deposited data

How the results depend on the processing

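Ccl2 and Ccl5 were higher in IRF4 KO under each alternative run, by 1.01 to 1.19 and 0.98 to 1.20 when 1 array was left out. They passed only with array weights (1.17, limma adjusted p = 0.00178, and 1.05, 0.00240), where 68 genes and 2 members passed; that estimate did not converge and gave IRF4 KO 2 a weight of 26.7 against 0.279 to 2.57 elsewhere. Elsewhere the adjusted p was 0.0904 to 1.0 for Ccl2 and 0.117 to 1.0 for Ccl5. On the 4 arrays with high spike-in controls 5 genes passed, 0 of them members. With the replicate block, which in this balanced design cannot alter a difference such as the 1.11 of Ccl2, 0 genes passed (adjusted p of Ccl2 = 1.0). At an adjusted p under 0.1 with all else as reported, 0 members passed. Ccl2 could not be tested with dim genes left out.

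The median difference of the members was 0.085 with array weights and 0.083 (without IRF4 KO 3) to 0.29 (without IRF4 KO 2) with 1 array left out. With array weights 7 named members turned sign: Ccl4 -0.13, Ccl9 -0.0068, Ccr2 -0.071, Cx3cl1 -0.099, Cx3cr1 -0.034, Cxcl16 -0.17 and Cxcr4 -0.46. Ackr4 gave -0.049 with the mean of its probe sets, and Ccr2 -0.029 on the 4 arrays. Leaving out 1 array gave ranges that crossed 0 for Ccl9 (-0.18 to 1.46), Ccr2 (-0.11 to 0.23), Cx3cl1 (-0.21 to 0.72), Cx3cr1 (-0.20 to 1.37), Cxcl10 (-0.46 to 0.17), Cxcl12 (-0.68 to 1.19), Cxcl15 (-0.030 to 0.23), Cxcl16 (-0.28 to 0.56), Cxcl2 (-0.73 to 0.10), Cxcl9 (-1.86 to 0.24), Cxcr3 (-0.012 to 0.24) and Cxcr4 (-1.04 to 1.26). The cause was not tested. The other named members kept their direction.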
